A study of Sus scrofa with 9 samples.

Results

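The genes followed here are the transcription factor NRF2 (gene NFE2L2), its sensor KEAP1 and 8 antioxidant enzyme genes, in the myocardium of porcine hearts donated after circulatory death. They were chosen by symbol from a list of 10 names, and 7 of the 10 have a row among the 25149 genes of the table: NFE2L2, KEAP1, GCLC, TXNRD1, SRXN1, SOD1 and CAT. HMOX1, GCLM and SOD2 were not analysed here. Of the 7, 6 reached 1 TPM, a level corrected for transcript length that sums to the same total in every heart, in at least 3 hearts and were tested. KEAP1 did not.

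The 9 hearts came from female American Yorkshire pigs of 4 to 6 months, and each gave 1 apex biopsy for RNA sequencing. All underwent 15 min of warm ischemia, a period of preservation and 2 h of reanimation on a blood-primed normothermic machine perfusion (NMP) circuit, after which the biopsy was taken. Group 1 (NRP + HOPE 24 h, pigs 27, 28 and 30) had 60 min of normothermic regional perfusion (NRP), which restores warm blood flow to the organ inside the donor, and then 24 h of hypothermic oxygenated perfusion (HOPE) at 8 °C with a perfusate that contained red blood cells. Group 2 (NRP + SCS 2 h, pigs 24, 25 and 29) had the same NRP and then 2 h of static cold storage (SCS) at 4 °C without flow. Group 3 (No NRP + HOPE 2 h, pigs 31, 33 and 34) was procured directly, without NRP, and had 2 h of HOPE. There was no heart without ischemia and none before reperfusion, so the values describe differences among reperfused hearts only. Groups 1 and 2 differ in storage method, temperature and storage time together, Groups 3 and 2 in NRP, storage method and temperature together, and Groups 1 and 3 in NRP and storage time together.

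NRF2 is the main activator of the antioxidant programme. KEAP1 holds it in the cytoplasm and delivers it for degradation; oxidants and electrophiles modify cysteines of KEAP1, and NRF2 then accumulates, enters the nucleus and binds antioxidant response elements, from which BACH1 can displace it. Its targets make glutathione, return thioredoxin and peroxiredoxins to their reduced forms, and degrade heme. Much of its control acts on the protein, which RNA levels do not show. In the heart the return of oxygen after ischemia raises superoxide and hydrogen peroxide, the substrates of superoxide dismutases and catalase.

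The labels name cardiomyocytes as the cell type, and the samples are whole myocardium. The 8 cardiomyocyte markers in the table (of 12 written) summed to between 23393 and 44779 TPM per heart, with none at 0, beside 199 to 452 TPM for endothelial and 669 to 1150 TPM for fibroblast markers. In such tissue, fewer cells of a type and less RNA per cell cannot be told apart. The 13 mitochondrially encoded protein genes took between 38.2% (pig 30, Group 1) and 55.3% (pig 27, Group 1) of all TPM, and the other genes of a heart share what is left. A median-of-ratios factor, which compares each heart with the typical gene, ranged from 0.737 in pig 27 and 0.781 in pig 31 to 1.34 in pig 30. Member levels are therefore given as deposited and, where it alters what is seen, after division by this factor.

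The most abundant member was SOD1, the cytosolic copper and zinc superoxide dismutase, with a mean of 126 TPM over the 9 hearts, above 95.5% of the tested genes. TXNRD1, the cytosolic thioredoxin reductase, followed at 85.8 TPM, NFE2L2 at 51.8 TPM and CAT, the peroxisomal catalase, at 46.7 TPM. GCLC, the catalytic subunit of the rate-limiting enzyme of glutathione synthesis, stood at 6.84 TPM, and SRXN1, sulfiredoxin, which repairs overoxidised peroxiredoxins, at 1.13 TPM. KEAP1 was listed at a mean of 0.158 TPM. The ranges of neighbours overlapped among the upper 4: SOD1 exceeded TXNRD1 in 9 of 9 hearts and TXNRD1 exceeded NFE2L2 in 8, but NFE2L2 exceeded CAT in only 5. From CAT to GCLC, GCLC to SRXN1 and SRXN1 to KEAP1 the ranges did not overlap. The plot of member levels by heart shows these values.

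**Figure D1:**
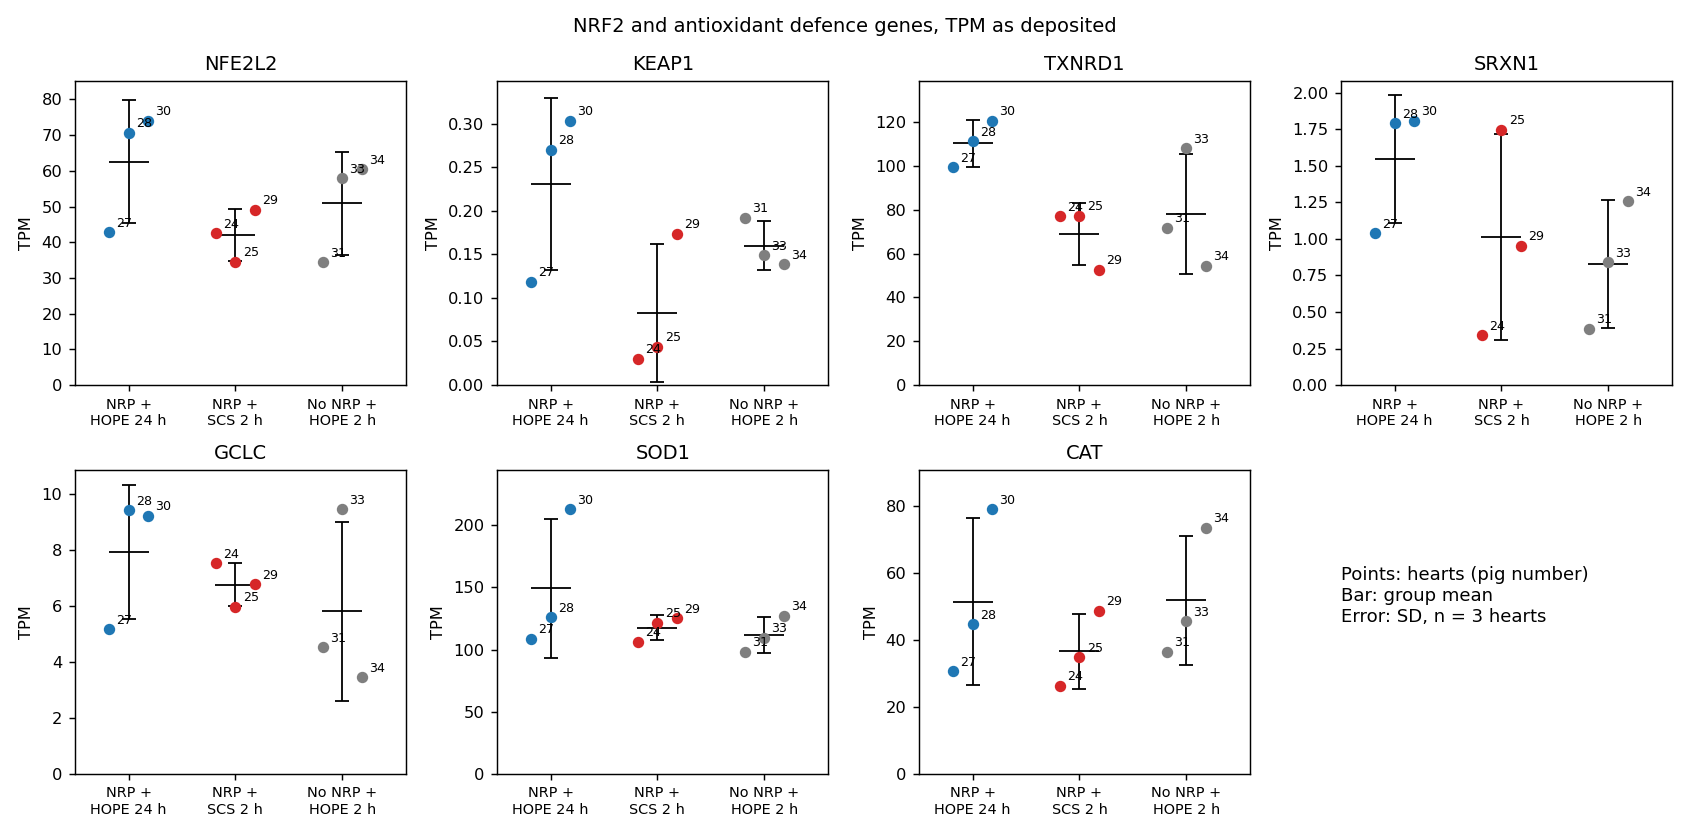
TPM as deposited (vertical axes, each from 0) of the 7 members in every heart, by group. Points are hearts with their pig numbers, horizontal bars are group means and error bars are SD (n = 3 hearts). TXNRD1 is the only member whose 3 hearts of NRP + HOPE 24 h (99.3 to 121 TPM) lie wholly above those of NRP + SCS 2 h (52.6 to 77.2 TPM).

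NFE2L2, the transcription factor itself, read 42.7, 70.7 and 74.1 TPM in pigs 27, 28 and 30 of Group 1, 42.5, 34.5 and 49.2 TPM in pigs 24, 25 and 29 of Group 2, and 34.4, 58.0 and 60.5 TPM in pigs 31, 33 and 34 of Group 3. Pigs 28 and 30 lay above every heart of Group 2, while pig 27 lay inside its range. The means were 62.5 ± 17.2, 42.1 ± 7.32 and 50.9 ± 14.4 TPM (SD, n = 3 hearts each). After median-of-ratios scaling pigs 27, 28 and 30 read 58.0, 77.2 and 55.1, against 32.5 to 45.8 in Group 2, and the groups no longer overlapped. The within-group SD of NFE2L2 on the log2 scale was 0.39 as deposited and 0.22 after scaling.

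KEAP1 was listed at 0.118, 0.270 and 0.303 TPM in Group 1, at 0.0303, 0.0442 and 0.174 TPM in Group 2 and at 0.192, 0.149 and 0.139 TPM in Group 3. All 9 values lie below the 1 TPM that the test required, so no fold change is given. KEAP1 is used in most cells, and whether its row holds all reads of the gene was not tested.

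TXNRD1 had the largest estimate of a member between Groups 1 and 2 at the pseudocount of 1. At a pseudocount of 0.1 it was 0.70, below 0.75 for SRXN1. Its levels were 99.3, 111 and 121 TPM in Group 1, 77.2, 77.2 and 52.6 TPM in Group 2, and 71.8, 108 and 54.4 TPM in Group 3. Every heart of Group 1 exceeded every heart of Group 2, while pig 33 of Group 3 fell within the range of Group 1. The log2 fold change of Group 1 against Group 2 was 0.69 with a standard error of 0.30 (95% confidence interval 0.05 to 1.33, limma on log2(TPM + 1), unadjusted p = 0.036, adjusted p = 0.965 over 11782 genes). An exact two-sided permutation test of these 3 against 3 hearts gave p = 0.1, the smallest it allows. The difference therefore did not pass the test across all genes. Leaving out any single heart kept the estimate within 0.51 to 0.78, while the unadjusted p rose above 0.05 without pig 28, 29 or 30. Scaling raised it to 0.83 (adjusted p = 0.484), and, unlike for NFE2L2, SOD1 and CAT, widened the within-group SD of TXNRD1, from 0.35 to 0.43.

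SRXN1, also of the thioredoxin arm, was low throughout. It read 1.04, 1.79 and 1.81 TPM in Group 1, 0.343, 1.75 and 0.955 TPM in Group 2 and 0.386, 0.841 and 1.26 TPM in Group 3. The groups overlapped, with pig 25 of Group 2 level with the upper hearts of Group 1. Its fold change depends on the pseudocount: at 0.1 in place of 1, the log2 estimate went from 0.38 to 0.75 in Group 1 against Group 2 and from 0.49 to 0.91 in Group 1 against Group 3, and neither was called. GCLC, of the glutathione arm, read 5.18, 9.43 and 9.24 TPM in Group 1, 7.53, 5.98 and 6.79 TPM in Group 2, and 4.53, 9.46 and 3.45 TPM in Group 3. As deposited Group 3 held both the highest and the lowest heart for GCLC, pigs 33 and 34, with pig 28 of Group 1 almost level with pig 33. After scaling pig 28 was the highest at 10.3, above 8.77 in pig 33, and pig 34 remained the lowest.

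SOD1, which removes superoxide, was high in 1 heart. It read 109, 126 and 213 TPM in Group 1, 106, 122 and 125 TPM in Group 2 and 98.3, 110 and 127 TPM in Group 3. Pig 30 stood far above the other 8 hearts, which ranged only from 98.3 to 127 TPM. Pig 30 is also the heart with the lowest mitochondrially encoded share and the largest size factor, and after scaling its SOD1 was 159 beside 148 and 138 in pigs 27 and 28. All 3 scaled values of Group 1 then exceeded those of Group 2 (98.3 to 117) and Group 3 (102 to 126). The part that the mitochondrial share has in these differences was not tested.

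CAT read 30.7, 44.8 and 79.1 TPM in Group 1, 26.4, 34.8 and 48.7 TPM in Group 2 and 36.6, 45.7 and 73.6 TPM in Group 3. Each group held a roughly graded set of hearts, and all 3 overlapped. The means were 51.5 ± 24.9, 36.6 ± 11.3 and 51.9 ± 19.3 TPM (SD, n = 3 hearts each). Catalase is abundant in red blood cells. HBB, the beta chain of hemoglobin, stood at 73.5, 339 and 420 TPM in Group 1, 70.8, 132 and 78.4 TPM in Group 2, and 220, 368 and 220 TPM in Group 3. Summed over the 3 erythroid markers in the table (of 7 written), Group 3 (222 to 373 TPM) did not overlap Group 2 (71.4 to 133 TPM; exact permutation p = 0.1), and Group 1 spanned both (73.9 to 425 TPM). Their part in the CAT values was not tested.

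The comparison of Group 1 with Group 2 asks whether prolonged HOPE left the antioxidant genes different from short cold storage after the same NRP. limma called 0 of the 6 tested members (adjusted p under 0.05 and absolute log2 fold change over 1), against 0.0255% of all tested genes. At an unadjusted p under 0.05 there was 1 of 6, TXNRD1, against 4.97% of all tested genes, and the groups did not overlap for the same 1 member, against 9.82%. The log2 fold changes were 0.53 for NFE2L2, 0.42 for CAT, 0.38 for SRXN1, 0.28 for SOD1 and 0.17 for GCLC, with adjusted p = 0.993 for each in limma. All 6 estimates, TXNRD1 included, lay above 0, as did 35.9% of all tested genes, and their median was 0.40 beside −0.12 for all tested genes. SOD1 rests on pig 30, without which its estimate was −0.0037, and leaving out the same heart took CAT to 0.06. SRXN1 was 0.12 without pig 24, and GCLC was 0.04 without pig 28 and 0.05 without pig 30. NFE2L2 ranged from 0.39 to 0.78 as single hearts were removed. Its unadjusted p in limma was under 0.05 in 3 of the 17 alternatives, scaling among them, and that of TXNRD1 in 13. The confidence intervals of the 6 ran from −0.61 to 1.33, and their upper bounds exceeded 1 on the log2 scale for NFE2L2, TXNRD1, SRXN1 and CAT.

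Median-of-ratios scaling, which brought the median of all genes to 0.00030, changed the count at an unadjusted p under 0.05 more than any other alternative run. In limma 4 of 6 members then had an unadjusted p under 0.05, against 8.54% of all tested genes. They were NFE2L2 with a log2 fold change of 0.68, TXNRD1 with 0.83, SOD1 with 0.43 and CAT with 0.56, and their adjusted p-values were 0.377, 0.484, 0.508 and 0.576. NFE2L2 and SOD1 joined TXNRD1 in not overlapping between the groups, 3 of 6 against 14.6% of all tested genes. 0 of 6 were called on this scale too, against 0.034% of all tested genes. The plot of fold changes sets both scales side by side.

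**Figure D2:**
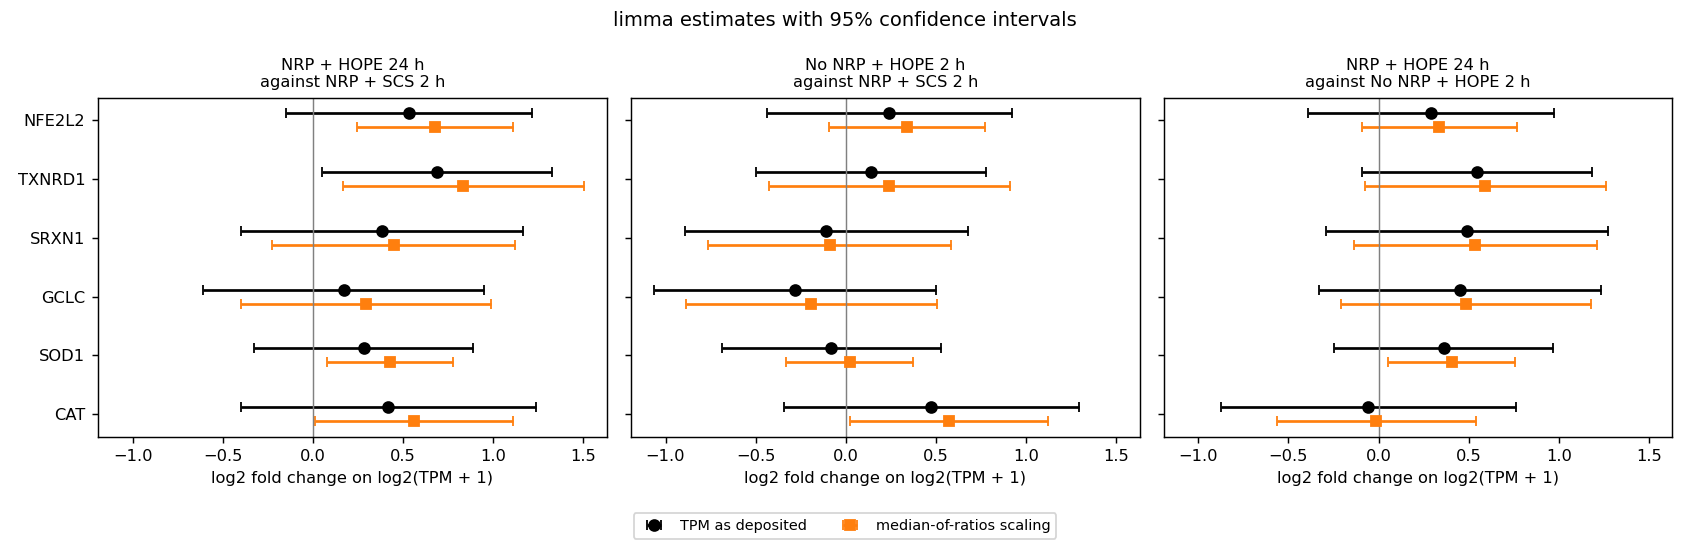
log2 fold changes on log2(TPM + 1) (horizontal axes) of the 6 tested members in each comparison, from limma, with 95% confidence intervals. Circles are TPM as deposited and squares are TPM after median-of-ratios scaling. For NRP + HOPE 24 h against NRP + SCS 2 h all 6 estimates lie above 0 on both scales, and the intervals of NFE2L2, SOD1 and CAT leave 0 only after scaling.

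The comparison of Group 3 with Group 2 concerns hearts stored for the same 2 h that differ in NRP, storage method and temperature. limma called 0 of 6 members, against 0.0509% of all tested genes, and 0 had an unadjusted p under 0.05, against 7.22%. For 0 of 6 did the groups separate, against 14.7%. CAT had the largest estimate at 0.47 (95% confidence interval −0.34 to 1.29, adjusted p = 0.866). NFE2L2 stood at 0.24, TXNRD1 at 0.14, SOD1 at −0.08, SRXN1 at −0.11 and GCLC at −0.28, so 3 of 6 estimates lay above 0, as did 42.2% of all tested genes, with a median of 0.03 beside −0.07 for all tested genes. SOD1 turned to 0.02 after scaling, and CAT reached 0.57 (unadjusted p = 0.043, adjusted p = 0.389 in limma), 1 of 6 members against 12.4% of all tested genes. On that scale 0 of 6 were called, against 0.161%, and 0 of 6 separated the groups, against 18%. TXNRD1 rests on pig 33 here, without which its estimate was −0.12. As single hearts were removed CAT ranged from 0.20 to 0.70, NFE2L2 from 0.10 to 0.50 and GCLC from −0.64 to −0.03.

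Group 1 was also compared with Group 3, which sets 24 h of HOPE after NRP beside 2 h of HOPE without it. The 3 comparisons share hearts, and their results are not independent. limma called 0 of 6 members, against 0.0509% of all tested genes, 0 had an unadjusted p under 0.05, against 6.01%, and 0 of 6 separated the groups, against 7.48%. The estimates were 0.55 for TXNRD1, 0.49 for SRXN1, 0.45 for GCLC, 0.36 for SOD1, 0.29 for NFE2L2 and −0.06 for CAT. Of the 6, 5 lay above 0, against 46.1% of all tested genes, with a median of 0.41 beside −0.03 for all tested genes. The smallest adjusted p was 0.862, for TXNRD1. GCLC and TXNRD1 each had an unadjusted p under 0.05 in limma in 1 of the 17 alternatives, which was not the scaling. As single hearts were removed TXNRD1 ranged from 0.32 to 0.81, SRXN1 from 0.31 to 0.66, GCLC from 0.20 to 0.81, SOD1 from 0.08 to 0.56 and NFE2L2 from 0.04 to 0.54. After scaling, SOD1 had a log2 fold change of 0.41 (unadjusted p = 0.027, adjusted p = 0.375 in limma), 1 of 6 members against 11.7% of all tested genes. NFE2L2, SRXN1 and SOD1 then separated the groups, 3 of 6 against 16.3%.

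Around the members, 7 lists of redox genes were written: NRF2 partners, other NRF2 targets, the glutathione system, the thioredoxin and peroxiredoxin system, superoxide dismutase partners, heme and iron handling, and sources of reactive oxygen. Of 94 genes, 67 were in the table and 57 were tested, and limma called 0 in each of the 3 comparisons. At an unadjusted p under 0.05 it found 0 higher and 2 lower in Group 1 against Group 2, 0 higher and 2 lower in Group 3 against Group 2, and 2 higher and 1 lower in Group 1 against Group 3. Over all tested genes this p was reached by 4.97%, 7.22% and 6.01%, both directions together. The medians over the 57 were −0.03, −0.03 and −0.02 on the log2 scale. After median-of-ratios scaling the counts were 4 higher and 3 lower, 7 higher and 3 lower, and 4 higher and 2 lower, against 8.54%, 12.4% and 11.7% of all tested genes, with medians of 0.11, 0.05 and 0.02 and with 0, 1 and 0 called, against 0.034%, 0.161% and 0.0255% of all tested genes.

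**Figure D3:**
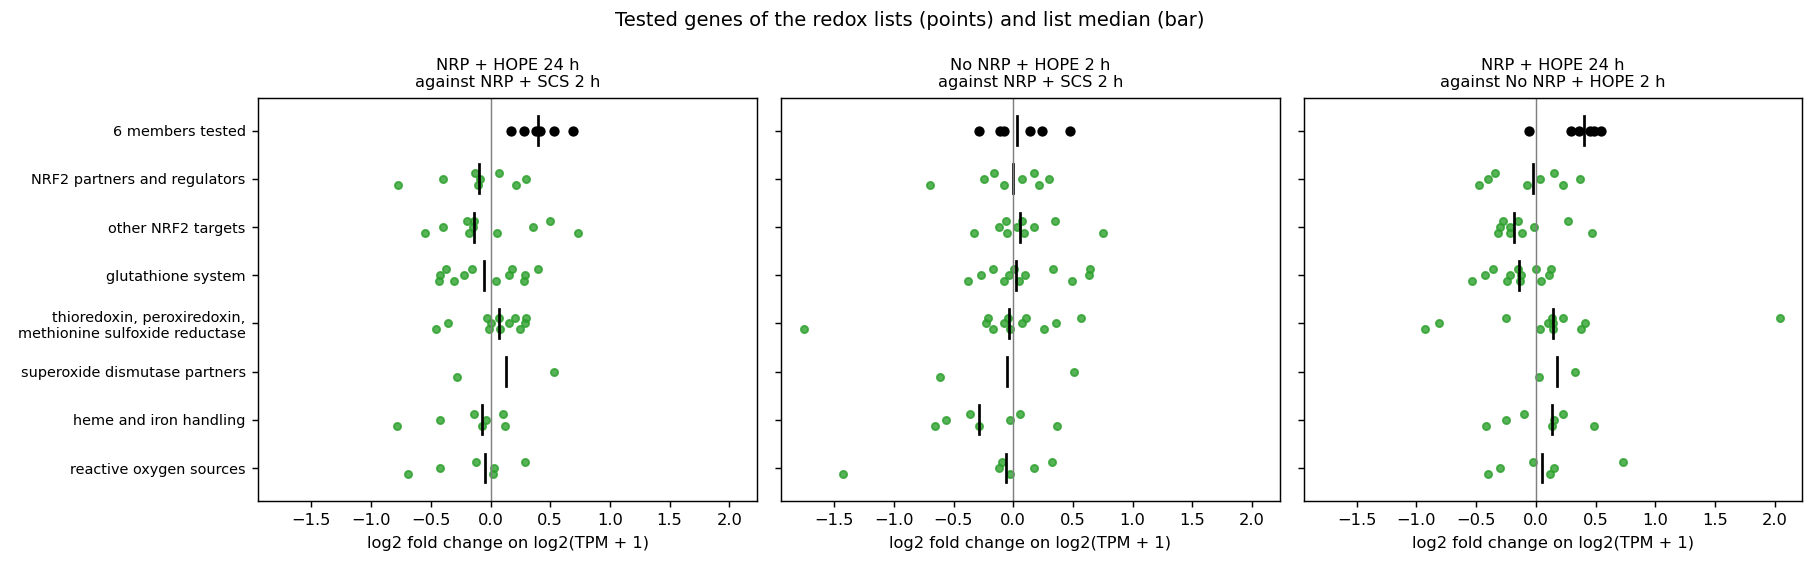
log2 fold changes on log2(TPM + 1) (horizontal axes) of the tested genes of 7 redox lists and of the 6 tested members, in each comparison. Each point is a gene and each bar a list median. Medians of the 7 lists lie between −0.29 and 0.18, and the points farthest from 0 are SESN2 (−1.76 and 2.04) and XDH (−1.42).

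Among NRF2 partners, BACH1, the repressor that competes with NRF2 for antioxidant response elements, had the smallest p in both comparisons with Group 2. It read 6.11, 16.5 and 13.7 TPM in Group 1, 20.7, 18.9 and 20.3 TPM in Group 2, and 7.19, 12.9 and 17.9 TPM in Group 3. Group 2 was the narrowest and lay above both other groups. Each comparison taken alone, in either direction, 9.82% (Group 1) and 14.7% (Group 3) of all tested genes also did not overlap with Group 2. The log2 fold changes were −0.78 (limma, adjusted p = 0.993) for Group 1 and −0.70 (adjusted p = 0.756) for Group 3, and neither passed. As single hearts were removed they ranged from −1.03 to −0.38 and from −0.97 to −0.37. After scaling, Groups 1 and 2 overlapped. The other members of the list with the smallest p in Group 1 against Group 2 were NFE2L1 at −0.40 (−0.60 to −0.26 with single hearts removed) and GSK3B at 0.29 (0.16 to 0.49), with limma adjusted p = 0.993 for each.

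A ratio of 2 genes within a heart does not depend on how the heart was scaled. NFE2L2 over BACH1 was 6.99, 4.28 and 5.39 in Group 1, 2.05, 1.82 and 2.43 in Group 2, and 4.78, 4.49 and 3.37 in Group 3. Every heart of Groups 1 and 3 lay above every heart of Group 2, and Groups 1 and 3 overlapped. The means were 5.55 ± 1.36, 2.10 ± 0.304 and 4.21 ± 0.745 (SD, n = 3 hearts each), and the mean of the log2 ratios was higher by 1.38 in Group 1 and by 0.999 in Group 3 than in Group 2. The exact two-sided permutation p was 0.1 in both, the smallest it allows, and 0.3 after adjustment over 12 such ratio comparisons, which were chosen after the values were seen. Pig 27, which was low for NFE2L2 as deposited, had the highest ratio of all 9 hearts, with the lowest BACH1.

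**Figure D4:**
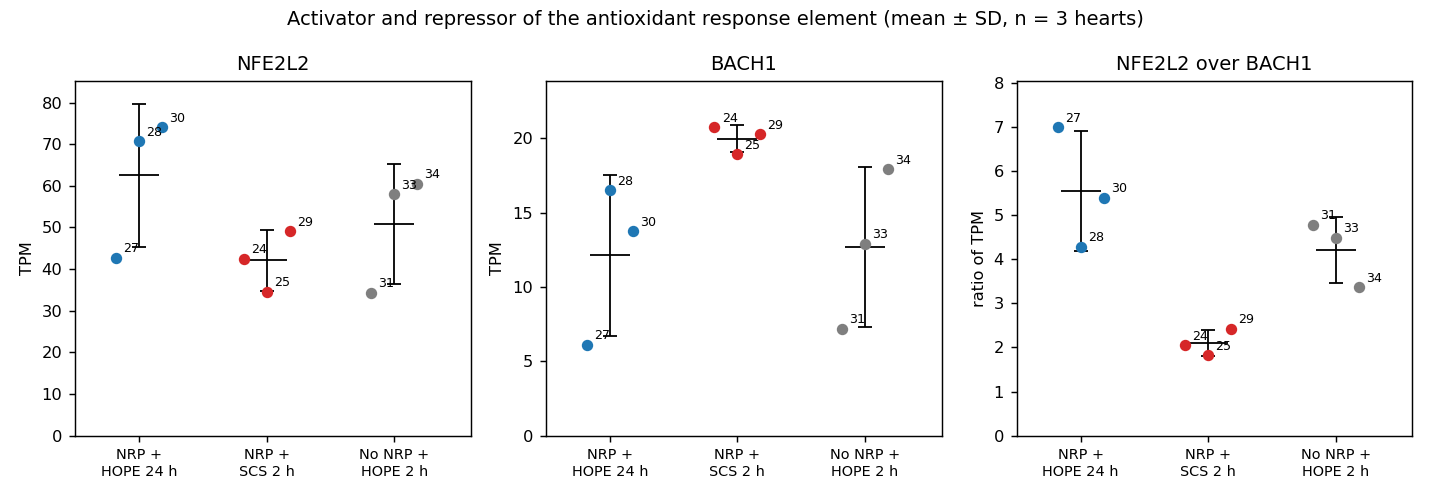
NFE2L2 and BACH1 in TPM as deposited, and their ratio (vertical axes, each from 0), in every heart by group. Points are hearts with their pig numbers, bars are means and error bars SD (n = 3 hearts). The ratio is 1.82 to 2.43 in NRP + SCS 2 h and 3.37 to 6.99 in the other 6 hearts.

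Of the 3 other ratios, TXNRD1 over its mitochondrial counterpart TXNRD2 was 16.7 to 31.6 in Group 1 and 11.8 to 16.2 in Group 2. These did not overlap but nearly met (exact permutation p = 0.1, adjusted 0.3), while Group 3 spanned 8.57 to 28.8. CAT over SOD1 had a mean of 0.336 ± 0.0473 in Group 1 and 0.456 ± 0.109 in Group 3, also without overlap (exact permutation p = 0.1, adjusted 0.3). Here too the groups nearly met, with 0.3714 in pig 30 and 0.3719 in pig 31. TXNRD1 over NFE2L2 overlapped in all 3 comparisons. In all, 4 of the 12 ratio comparisons did not overlap, and the share among ratios of other genes was not computed.

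Among the other NRF2 targets, EPHX1, microsomal epoxide hydrolase, stood at 0.74 in Group 1 and 0.75 in Group 3 against Group 2, NQO1, the quinone reductase often read as an NRF2 target, at 0.50 and 0.03, and PGD, of the pentose phosphate pathway, at −0.55 and −0.33. In limma their adjusted p-values in Group 1 against Group 2 were 0.993 each. EPHX1 read 4.67, 7.41 and 14.02 TPM in Group 1, 5.46, 2.97 and 5.05 TPM in Group 2 and 5.11, 9.76 and 10.3 TPM in Group 3, so each of the other groups had 1 heart inside the range of Group 2. As single hearts were removed, the Group 1 against Group 2 estimates ranged from 0.36 to 1.06 for EPHX1, 0.19 to 0.69 for NQO1 and −0.81 to −0.34 for PGD, and EPHX1 ranged from 0.53 to 1.04 in Group 3 against Group 2. NQO1 read 16.5, 18.4 and 34.1 TPM in Group 1, 13.01, 19.9 and 13.4 TPM in Group 2 and 14.9, 18.8 and 13.3 TPM in Group 3, with pig 30 alone outside the common range. After scaling, EPHX1 and NQO1, higher in Group 1, and PGD, lower in it (−0.41), did not overlap between Groups 1 and 2, which was also the case for 14.6% of all tested genes. In Group 1 against Group 3 this list had 2 of 10 estimates above 0.

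The glutathione list had 12 tested genes with medians of −0.05, 0.03 and −0.14, and the smallest p in the comparisons with Group 2 belonged to GPX8, an endoplasmic reticulum peroxidase, at 0.39 in Group 1 (0.23 to 0.68 with single hearts removed) and 0.64 in Group 3 (0.47 to 0.92). In Group 3 against Group 2, 0 of the 12 had an unadjusted p under 0.05 as deposited, and after scaling 4 did, all higher (GPX8, GLRX5, GGT5 and, named only after its value was seen, MGST3), against 12.4% of all tested genes, with 0 called. Of the superoxide dismutase partners, CCS, the copper chaperone of SOD1, stood at 0.53 and 0.51 in Groups 1 and 3 (limma adjusted p = 0.993 and 0.806). The ranges were 0.38 to 0.66 and 0.27 to 0.65 as single hearts were removed. For CCS Groups 1 and 2 did not overlap on either scale, against 9.82% and 14.6% of all tested genes. Groups 3 and 2 did not overlap after scaling only, against 18%. SOD3, the extracellular dismutase, stood at −0.28 (−0.99 to 0.14 with single hearts removed) and −0.61 (−0.92 to −0.24), with limma adjusted p-values of 0.993 and 0.879. Among heme genes BLVRB, a biliverdin reductase abundant in red cells, was 14.5, 6.38 and 19.0 TPM in Group 1 and 21.4, 24.9 and 19.1 TPM in Group 2, without overlap (log2 fold change −0.78, limma unadjusted p = 0.044, adjusted p = 0.985), where 9.82% of all tested genes also did not overlap. After scaling its groups overlapped (−0.65, limma unadjusted p = 0.080). BLVRB ranged from −1.08 to −0.37 as single hearts were removed. FECH, ferrochelatase, which completes heme synthesis, was −0.43 in Group 1 (−0.88 to 0.01 with single hearts removed) and −0.66 in Group 3 against Group 2 (−0.75 to −0.58, limma adjusted p = 0.796), and Groups 3 and 2 did not overlap on either scale, against 14.7% and 18% of all tested genes. NCOA4 stood at −0.14 in Group 1 against Group 2 (−0.40 to 0.17). In Group 3 against Group 2, TFRC stood at −0.56 (−0.74 to −0.32, limma adjusted p = 0.820). ALAS1 of the same list went the other way there, at 0.37 (0.25 to 0.45, limma adjusted p = 0.881). For ALAS1 these groups did not overlap on either scale, as for FECH.

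The estimates farthest from 0 belonged to SESN2 and XDH. SESN2, sestrin 2, a stress-inducible protein that restrains mTORC1 and promotes the degradation of KEAP1, read 20.5, 29.9 and 20.5 TPM in Group 1, 28.7, 17.5 and 13.3 TPM in Group 2, and 2.71, 8.63 and 4.69 TPM in Group 3. All 6 hearts with NRP lay above all 3 without it. Each comparison taken alone, in either direction, 14.7% (Groups 3 and 2) and 7.48% (Groups 1 and 3) of all tested genes did not overlap. The share that separated in both was not computed. The log2 fold change was −1.76 for Group 3 against Group 2 (adjusted p = 0.162 in limma) and 2.04 for Group 1 against Group 3 (adjusted p = 0.140), so neither was called as deposited. Without pig 33, the highest of Group 3, the latter was 2.40 and passed (adjusted p = 0.032). Group 1 against Group 2 gave 0.29 (95% confidence interval −0.55 to 1.12). SESN1 in Group 1 against Group 3 stood at −0.93 (−1.44 to −0.62 with single hearts removed, limma adjusted p = 0.857), opposite in sign to SESN2. TXNRD3 stood at −0.81 there (−1.06 to −0.67, limma adjusted p = 0.829). As deposited the groups overlapped for both genes. After scaling TXNRD3 separated them, as did 16.3% of all tested genes.

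XDH, the xanthine dehydrogenase whose oxidase form makes superoxide from hypoxanthine after ischemia, read 40.7, 42.0 and 61.1 TPM in Group 1, 87.1, 61.6 and 83.4 TPM in Group 2 and 25.3, 23.6 and 36.4 TPM in Group 3. The 3 groups did not overlap, with Group 2 highest and Group 3 lowest. In the same 3 comparisons, each taken alone, 9.82%, 14.7% and 7.48% of all tested genes did not overlap. The share that separated all 3 groups was not computed. The log2 fold change of Group 3 against Group 2 was −1.42 (standard error 0.29, adjusted p = 0.118 in limma), and it was called after median-of-ratios scaling (−1.32, adjusted p = 0.049). It was −0.69 for Group 1 against Group 2 and 0.73 for Group 1 against Group 3, with adjusted p-values of 0.953 and 0.753. XDH is expressed mainly by endothelial cells. Their summed markers (5 of 8 in the table, none at 0) were 214 to 442 TPM in Group 1, 399 to 452 TPM in Group 2 and 199 to 424 TPM in Group 3. The groups overlapped in all 3 comparisons as deposited, and after scaling Groups 1 and 2 did not while Groups 3 and 2 still overlapped. As deposited the mean log2 sum differed by −0.44 for Group 1 and by −0.44 for Group 3 against Group 2. For Group 1 against Group 3 it differed by −0.0027. XDH stood at −0.69, −1.42 and 0.73 in these 3 comparisons. The part of the endothelial markers in the XDH values was not tested.

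Neutrophil markers were lowest in Group 3, where their sums stayed below the 1 TPM asked of a tested gene. The 4 of 6 in the table, of which CSF3R and MPO were at 0 in every heart, summed to 0.357 to 3.89 TPM in Group 1, 2.02 to 13.2 TPM in Group 2 and 0 to 0.343 TPM in Group 3. Group 3 overlapped neither other group, as deposited or after scaling (exact permutation p = 0.1 as deposited in both comparisons, the smallest it allows), with log2 differences on log2(summed TPM + 1) of −2.48 from Group 2 and 1.08 for Group 1 over Group 3. Other lists also separated groups as deposited, with exact permutation p = 0.1 each. Fibroblast markers were higher in Group 3 than in Group 2 (0.34). Smooth muscle and pericyte markers were lower in Group 1 than in Group 3 (−0.44). Both of these lists overlapped after scaling. The part of any of these markers in the SESN2 and XDH values was not tested.

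**Figure D5:**
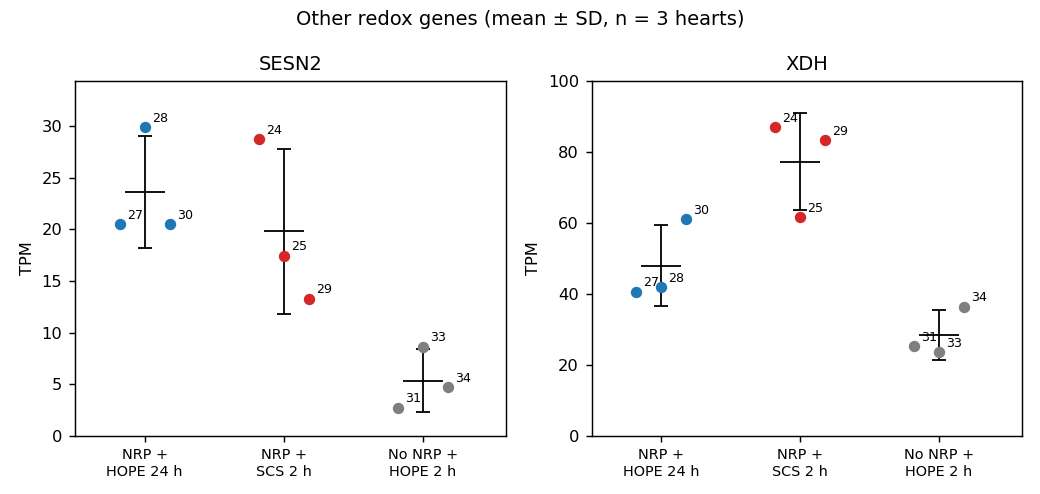
SESN2 and XDH in TPM as deposited (vertical axes from 0) in every heart, by group, with pig numbers, means and SD (n = 3 hearts). SESN2 is 2.71 to 8.63 TPM in No NRP + HOPE 2 h and 13.3 to 29.9 TPM in the 6 hearts with NRP, and XDH separates the 3 groups.

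Across the 9 hearts, the 15 pairs of tested members had correlations (Pearson, log2(TPM + 1)) from −0.01 to 0.75 with a median of 0.48 and 14 above 0. After scaling they ran from −0.28 to 0.73 with a median of 0.44 and 13 above 0. These points share the composition of each library and the groups, and are given as a description. Among the genes most like each member over the 9 hearts were STK10, NFKBIE and TGFB2 for NFE2L2 (0.96, 0.95 and 0.95), PLAT, FOSL1 and PKIG for TXNRD1 (0.96, 0.96 and 0.94), and SHROOM3 and PARM1 for SOD1 (0.97 each). They were RNF103, HMCES and CPNE3 for CAT (0.97, 0.97 and 0.96), UBASH3B, LRRC59 and IL1R1 for GCLC (0.96, 0.96 and 0.95), and RF00217, VDAC3 and TMEFF2 for SRXN1 (0.94, 0.91 and 0.91). Scaling kept STK10 for NFE2L2, PLAT and PKIG for TXNRD1, HMCES for CAT, UBASH3B and LRRC59 for GCLC, and RF00217 and VDAC3 for SRXN1 among the first 3, and neither SHROOM3 nor PARM1 for SOD1. Without the 2 hearts farthest from the member's median, SHROOM3 with SOD1 fell to 0.75 as deposited, and after scaling UBASH3B and LRRC59 with GCLC were at 0.70 and 0.53. RF00217, VDAC3 and TMEFF2 with SRXN1 fell to 0.80, 0.79 and 0.80 as deposited. All of these rest in part on those hearts. RF00217 also had a minimum of 0 TPM.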

How the data were processed

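Per the labels and the supplemental methods, the authors enriched mRNA from 9 apex biopsies, sequenced it in paired ends, trimmed it with Trimmomatic 0.36, mapped it with STAR 2.5.2b (genome build not given in the sources used here) and counted exonic reads with featureCounts (Subread 1.5.2). The authors tested counts with DESeq2. The values deposited by the authors are TPM, scaled for gene length and to 1000000 per heart, with 4 decimals. They hold no counts, so depth is unknown and no counting interval is given. Precision is shown by the spread of 3 hearts.

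Samples were grouped by the labels, and 9 further columns that matched no labelled heart were not used. A gene was tested if 3 or more of the 9 hearts reached 1 TPM (11782 genes), on log2(TPM + 1) with limma 3.58.1 in R 4.3.3: 1 mean per group, all 9 hearts, moderated variances with a trend, two-sided, Benjamini-Hochberg over all genes. The pseudocount of 1 understates changes of low genes such as SRXN1. Single values and summed markers had exact two-sided permutation tests (scipy 1.17.1). Only pigs, not technical repeats, served as replicates. The fit was also run on simulated data with independent errors and no shift of whole hearts such as the size factors show. Its outcome is not given here and is not used as support.

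Alternatives were a pseudocount of 0.1, no filter, a mean of at least 5 TPM, median-of-ratios scaling, mitochondrially encoded genes left out, only the 6 hearts compared, array weights, no variance trend, and each heart left out. Named were all members, from each redox list any called gene or up to 3 with the smallest p per comparison, and the 3 genes most correlated with each member, of which 1 is not reported here. Members and lists were chosen with earlier results of these data known. The ratios were added after seeing the values. Markers were summed in 8 lists. T cell markers were at 2.13 to 13.9 TPM per heart, macrophage markers at 62.5 to 217 TPM, and smooth muscle and pericyte markers at 225 to 489 TPM.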

Additional observations from a re-analysis of the deposited data

How the results depend on the processing

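No paired analysis was possible because no pig number is shared between groups. The count of called members was 0 in each comparison under all 17 alternatives. With 3 hearts a group, estimates near 0 turned with single hearts, as the ranges with each heart removed show. Between Groups 1 and 2, SOD1 ranged from −0.0037 (without pig 30) to 0.48. Between Groups 3 and 2, TXNRD1 ranged from −0.12 (without pig 33; −0.04 without pig 29) to 0.37, SRXN1 from −0.37 to 0.15 (without pig 25; 0.08 without pig 31), and SOD1 from −0.18 to 0.0079 (without pig 31). Also there, SOD1 was 0.022 with median-of-ratios scaling, and GCLC was 0.13 with array weights. Between Groups 1 and 3, CAT ranged from −0.41 to 0.25 (without pig 27; 0.22 without pig 34). The cause was not tested. XDH between Groups 3 and 2 passed with median-of-ratios scaling (−1.32), without mitochondrially encoded genes (−1.45) and with array weights (−1.48). SESN2 between Groups 1 and 3 passed without pig 33 (2.40). Of the estimates for the 6 members, XDH and SESN2 under the alternatives, 391 kept their direction and side of the threshold, 10 changed direction and 4 newly passed. SRXN1 gave no value at a mean of at least 5 TPM. Depth is unknown.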
